A study of Rattus norvegicus with 3 samples.

Results

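The haemoglobin genes were followed across 3 cultures of cardiomyocytes isolated from fetal Wistar rats, together with Alas2, Slc4a1 and Epb42, genes that mark maturing red cells. The members were every probe set (a group of short probes on the array that together measure a transcript) whose annotation listed a symbol beginning with Hba, Hbb, Hbe, Hbg or Hbz, including those that listed several globin genes at once, and every probe set of the 3 red cell genes. This gave 15 of 31099 probe sets. Of these, 11 were for globins, naming 10 globin symbols, and 4 were for the red cell genes. Hbegf, which shares the first letters but encodes a growth factor, was left out. The members were chosen by name, but the globins were taken up because the Hbb value on the fibroblast medium array, selected from these same data, was already known to be low. Their values are therefore a description, with no test.

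After 48 hours on the plate, each culture spent 24 hours in fresh culture medium, in medium conditioned by skeletal myoblasts or in medium conditioned by cardiac fibroblasts. All 3 came from unmodified fetal animals of 1 outbred strain. The labels used here give neither the gestational age nor the number of animals in a culture. With 1 Affymetrix 3' expression array per medium there were no replicates, so no difference below has an error or a p-value, and the number of arrays limits the precision. Fewer cells of a type and less RNA per cell cannot be told apart in such bulk samples. Values are log2 and give each array relative to the median array of that probe set, which was left blank and is read here as 0. A difference of 1 is 2-fold. Absolute brightness is not recoverable from them, so neither the level of any globin nor the presence of cardiomyocyte markers could be checked, and levels are not compared between genes. Technical scatter was gauged by 42 probe sets for foreign control transcripts, which are added at fixed amounts during sample processing. They do not gauge scatter between cultures. Their differences from fresh medium ran from -0.01 to 0.66 in myoblast medium and from -0.68 to 0.59 in fibroblast medium, and their difference between the conditioned media reached 1.02.

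Haemoglobin, the oxygen carrier of red cells, is assembled from alpha-type and beta-type chains encoded in separate gene clusters. Within each cluster the genes used in the embryo lie at the 5' end and those used by fetal liver and adult red cells lie downstream, and the switch between them is one of the classic examples of developmental gene control. Reticulocytes, the youngest circulating red cells, still carry large amounts of globin mRNA after most other red cell transcripts have declined. Cardiomyocytes are not known for haemoglobin but express myoglobin, a related oxygen-binding protein.

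The 150 bases before the start site are shown, to let the likeness of the adult genes be seen, for genes whose probe sets differed strongly between the media. They are also shown for the embryonic genes Hbe1 and Hbz and for Alas2. The probe sets of Hbe1 and Alas2 did not differ strongly, and that of Hbz had no value on any array. Of the globin and red cell genes, 12 had a promoter in the RefSeq table of assembly GRCr8, and 7 are printed. The 12 include Hbb-b1 and Hbb-b2, which no probe set listed and which are therefore not members. Capitals mark motifs searched on both strands, so that the reverse complement is capitalised too. The first was CCACCC, a short form of the CACC box, and other forms were not searched. The GATA motif was searched as AGATAA. It was also searched as TGATAA, which ends in the same letters and cannot match at the same place. The last was CCAAT, which shared no base with the others in these windows. The windows are chr10:15829139-15829288 for Hba-a2, chr10:15816944-15817093 for Hba-a3, chr1:167631631-167631780 for Hbb-bs, chr1:167663722-167663871 for Hbb, chr1:167696281-167696430 for Hbe1 and chr10:15849758-15849907 for Hbz, all on the minus strand, and chrX:22895300-22895449 on the plus strand for Alas2.
Hba-a2: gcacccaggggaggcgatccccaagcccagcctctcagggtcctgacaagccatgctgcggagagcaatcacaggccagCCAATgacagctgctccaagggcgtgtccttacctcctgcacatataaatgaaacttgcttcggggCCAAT
Hba-a3: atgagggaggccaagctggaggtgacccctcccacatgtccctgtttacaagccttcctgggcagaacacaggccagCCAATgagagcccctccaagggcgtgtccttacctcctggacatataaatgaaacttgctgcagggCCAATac
Hbb-bs: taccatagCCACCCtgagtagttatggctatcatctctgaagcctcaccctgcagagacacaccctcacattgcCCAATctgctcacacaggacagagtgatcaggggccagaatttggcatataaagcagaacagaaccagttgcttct
Hbb: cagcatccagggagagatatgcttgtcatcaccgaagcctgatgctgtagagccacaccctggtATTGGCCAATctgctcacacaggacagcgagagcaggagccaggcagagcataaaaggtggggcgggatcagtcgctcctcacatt
Hbe1: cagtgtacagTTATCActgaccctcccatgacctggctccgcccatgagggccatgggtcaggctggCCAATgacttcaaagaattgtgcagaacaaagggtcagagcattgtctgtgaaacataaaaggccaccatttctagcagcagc
Hbz: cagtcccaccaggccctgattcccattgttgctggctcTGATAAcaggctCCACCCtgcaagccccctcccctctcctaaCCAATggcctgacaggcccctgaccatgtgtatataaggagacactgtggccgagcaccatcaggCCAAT
Alas2: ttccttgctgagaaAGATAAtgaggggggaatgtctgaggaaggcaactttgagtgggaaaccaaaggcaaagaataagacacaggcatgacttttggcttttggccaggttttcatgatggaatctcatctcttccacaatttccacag

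Hba-a1 and Hba-a2 were identical at 144 of 150 aligned bases of this window, with gaps not counted, and Hba-a2 and Hba-a3 at 119 of 135. Hbb-bs and Hbbl1 were identical at 145 of 147 bases and Hbb and Hbb-bs at 106 of 140. By the same measure Hba-a2 and Hbb-bs, of different clusters, were identical at 93 of 114 bases. The red cell gene Epb42 and Hbb-bs were identical at 89 of 124. The value for Hbb and Hbb-bs is therefore not set apart from those of less related pairs. The pairs Hba-a1 with Hba-a2, and Hbb-bs with Hbbl1, are also those that shared probe sets on the array. In the window from 250 bases before to 50 after the start, CCAAT was found in 8 of 8 adult globin promoters and in both embryonic ones found there, Hbe1 and Hbz, and in 37.5% of all 33469 promoters of that length. Neither of the red cell gene promoters, Alas2 and Epb42, held it. CCACCC was found in 4 of the 8 adult promoters, all of the beta cluster, against 29.4% of all promoters, and in Hbz. Hbb-b1 and Hbb-b2, which no probe set listed, are among the 8 adult promoters and among these 4. TGATAA was found in Hba-a1 and Hba-a2, and in both embryonic promoters, against 9.03% overall. AGATAA was found in 0 of 8 adult promoters and in Alas2, against 11.6% overall. A match says only that the letters are present, and a promoter without CCACCC can hold another form of the CACC box.

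Every adult globin probe set had the same order of media: highest in fresh medium, intermediate in myoblast medium and lowest in fibroblast medium. This order held in 7 of 7 adult probe sets and in 1 of 4 embryonic ones, and 13.5% of all probe sets had it. Among these 4, Hbz had no value on any array and could not show an order. In each of the 7, the myoblast array was the blank, median one, so the value there is 0 by construction. On the fresh medium array the 7 lay close together, from 0.95 to 1.09. On the fibroblast array they were spread from -7.82 to -1.05.

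**Figure D1:**
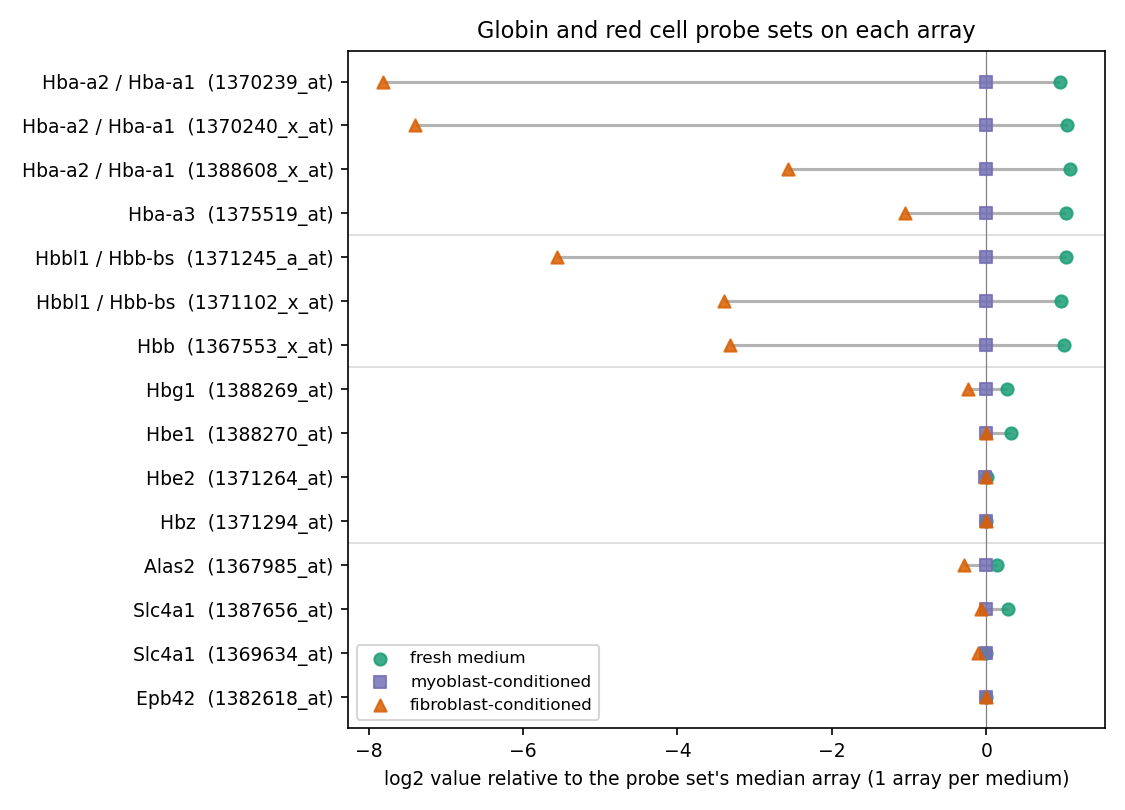
Log2 value of each globin and red cell probe set on each of the 3 arrays, relative to the median array of that probe set, with grey lines joining its lowest and highest array. The adult probe sets sit near 1 in fresh medium and between -7.82 and -1.05 in fibroblast medium, while embryonic and red cell probe sets stay between -0.29 and 0.32 on every array. Hbz and Epb42 had no value on any array and are drawn at 0.

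Hba-a1 and Hba-a2 encode the adult alpha chain and were measured together by 3 probe sets. Probe set 1370239_at read 0.95 in fresh medium, 0 in myoblast medium and -7.82 in fibroblast medium. Its difference between fibroblast and fresh medium was -8.77, or 436-fold lower, leaving 0.229% of the fresh medium signal. This was the lowest difference of all 31099 probe sets in that comparison. Probe set 1370240_x_at read 1.04 in fresh, 0 in myoblast and -7.40 in fibroblast medium, a difference of -8.45, the next lowest on the array. The third, 1388608_x_at, read 1.09 in fresh, 0 in myoblast and -2.57 in fibroblast medium, a difference of -3.66 (12.6-fold), which ranked 20 from the lowest. The 3 probe sets thus gave the same direction but sizes that spread over 5.11 on the log2 scale, although the annotation gives them the same pair of genes. In the comparison of myoblast with fresh medium the same 3 probe sets lay within 0.14 of each other.

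Hba-a3, a further adult-type alpha gene at the 3' end of the cluster, had a probe set of its own, which read 1.04 in fresh, 0 in myoblast and -1.05 in fibroblast medium. Its difference between fibroblast and fresh medium, -2.09 (4.25-fold lower), was the smallest among the adult globins.

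The adult beta chain genes were measured by 3 probe sets. For Hbb, the single-symbol probe set 1367553_x_at read 1.0 in fresh, 0 in myoblast and -3.32 in fibroblast medium, a difference of -4.32 between fibroblast and fresh medium, which left 5.02% of the fresh medium signal. For Hbbl1 and Hbb-bs, adult beta-type genes that shared their probe sets, 1371102_x_at read 0.97 in fresh, 0 in myoblast and -3.40 in fibroblast medium, a difference of -4.36. The other, 1371245_a_at, read 1.03, 0 and -5.56 in the same order, a difference of -6.60 (96.9-fold lower), the third lowest of all probe sets. The beta probe sets therefore lay between the extremes of the alpha probe sets. Names ending in _x_at mark designs that can bind several transcripts. Within the alpha gene pair the designs of this kind read -8.45 and -3.66 and the other design -8.77, and the part of the design in the spread was not tested.

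The embryonic genes with a value showed no such difference. Hbz, the embryonic alpha-type gene at the 5' end of the alpha cluster, had no value on any array and is read as 0 throughout. Hbe1, an embryonic beta-type gene, read 0.32 in fresh medium and 0 in both conditioned media, a difference of -0.32 in each. Hbe2 read 0.00 in fresh, -0.02 in myoblast and 0 in fibroblast medium. Hbg1, the gamma-type gene next to them, which is embryonic in rodents, read 0.27 in fresh, 0 in myoblast and -0.23 in fibroblast medium, the widest of the 4, with a difference of -0.50 between fibroblast and fresh medium. In fibroblast against fresh medium the differences lay within the range of the added control transcripts. In myoblast against fresh medium the controls ran from -0.01 to 0.66 and give little gauge of a decrease. Hbe1 (-0.32) and Hbg1 (-0.27) ranked 2463 and 3104 from the lowest of all probe sets there. How far above background the embryonic probe sets were is unknown.

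**Figure D2:**
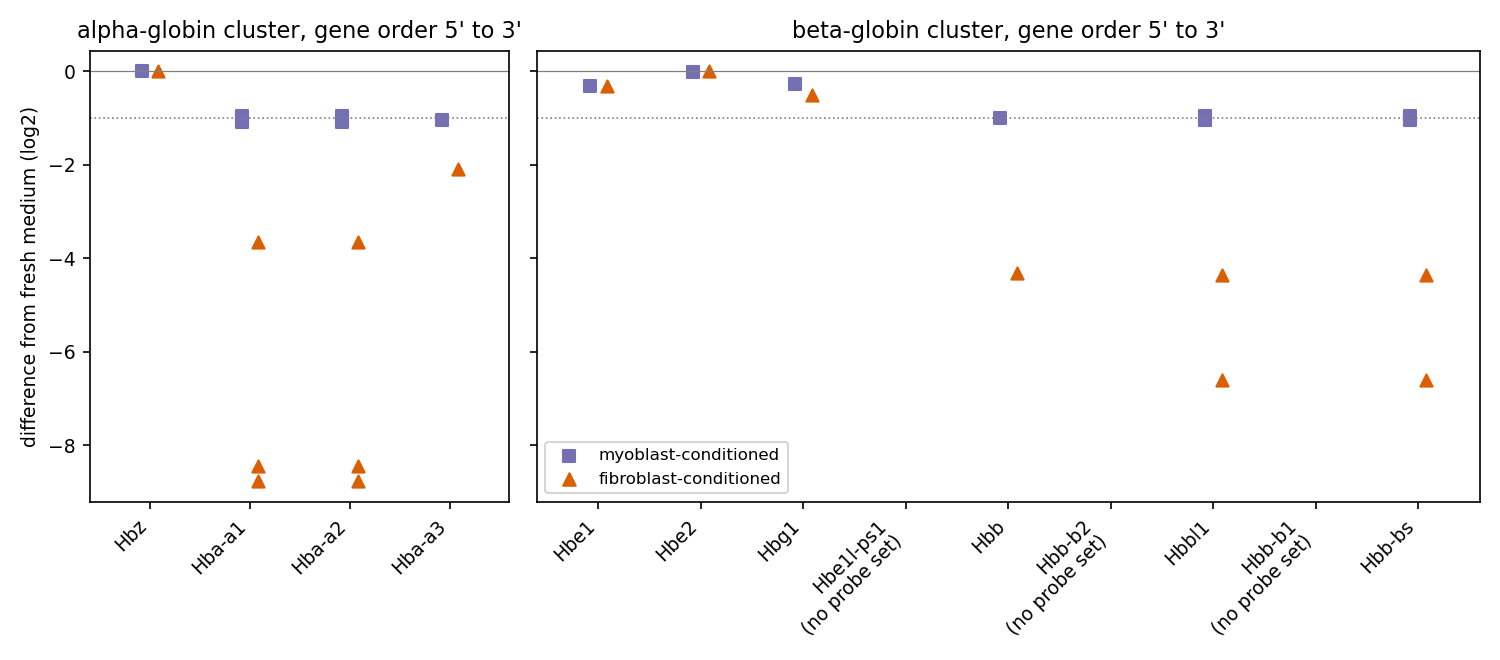
Difference from fresh medium on the log2 scale for each globin gene, with genes in their order along the alpha and beta clusters of the RefSeq table of assembly GRCr8 and not to genomic scale. Squares are myoblast medium and triangles fibroblast medium, and a probe set that lists a pair of genes is drawn under both. The genes at the 5' ends (Hbz, which had no value on any array and is drawn at 0, and Hbe1, Hbe2 and Hbg1) lie between -0.50 and 0, and the downstream genes with a probe set lie from -0.95 to -1.09 in myoblast medium and from -2.09 to -8.77 in fibroblast medium.

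Along the alpha cluster the order from the 5' end in that assembly is Hbz, Hba-a1, Hba-a2 and Hba-a3. Along the beta cluster it is Hbe1, Hbe2, Hbg1, the pseudogene Hbe1l-ps1, Hbb, Hbb-b2, Hbbl1, Hbb-b1 and Hbb-bs. Hbb-b1, Hbb-b2 and the pseudogene were listed by 0 probe sets. In the beta cluster the genes within 2-fold were the 5' ones and those with large differences were downstream, as the plot of differences by gene order shows. In the alpha cluster no such division was measured, because its only 5' gene, Hbz, had no value.

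In the comparison of fibroblast with fresh medium, 7 of 11 globin probe sets lay 2-fold or more below fresh medium and 0 above it, with a median of -3.66. Of all probe sets 2.56% were that much lower and 3.6% that much higher, with a median of 0.00. The globin median depends on the mix of adult and embryonic probe sets: with single-symbol probe sets alone, 4 of 6 of them embryonic, it was -0.41 and 2 passed 2-fold. The 7 lower probe sets were those of adult genes, 4 alpha and 3 beta, with medians of -6.05 and -4.36. Every adult probe set lay far beyond the lowest added control transcript, at -0.68. Of the 4 lowest probe sets on the array 3 were globins, as were 6 of the 20 lowest.

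In the comparison of myoblast with fresh medium the adult globins were lower by almost the same amount in every probe set. The 4 alpha probe sets lay from -1.09 to -0.95 and the 3 beta probe sets from -1.03 to -0.97, which corresponds to 47.0% to 51.8% of the fresh medium signal. Because these values straddle the 2-fold line, 5 of 11 globin probe sets passed it and 2 adult ones, 1370239_at (-0.95) and 1371102_x_at (-0.97), fell just short. Of all probe sets, 0.72% were at least 2-fold lower. The added control transcripts ran from -0.01 to 0.66 here and give little gauge of a decrease. The lowest of the 7, 1388608_x_at, ranked 169 from the bottom of all probe sets. Of all probe sets 1.09% were at least 2-fold higher, and 0 of the globins were. Without the cross-hybridising probe sets 2 of 7 globin probe sets passed 2-fold and the median was -0.32, and with single-symbol ones alone 2 of 6 and -0.30.

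Between the conditioned media, the adult globins were higher in myoblast medium. All 7 were at least 2-fold higher, from 1.05 for Hba-a3 to 7.82 for 1370239_at (226-fold), and 0 of the 4 embryonic probe sets passed 2-fold, whereas 2.08% of all probe sets were that much higher and 3.41% that much lower. Hbz, among those 4, had no value on any array. The 3 comparisons use the same 3 arrays, each in 2 of them, and are not independent of one another.

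**Figure D3:**
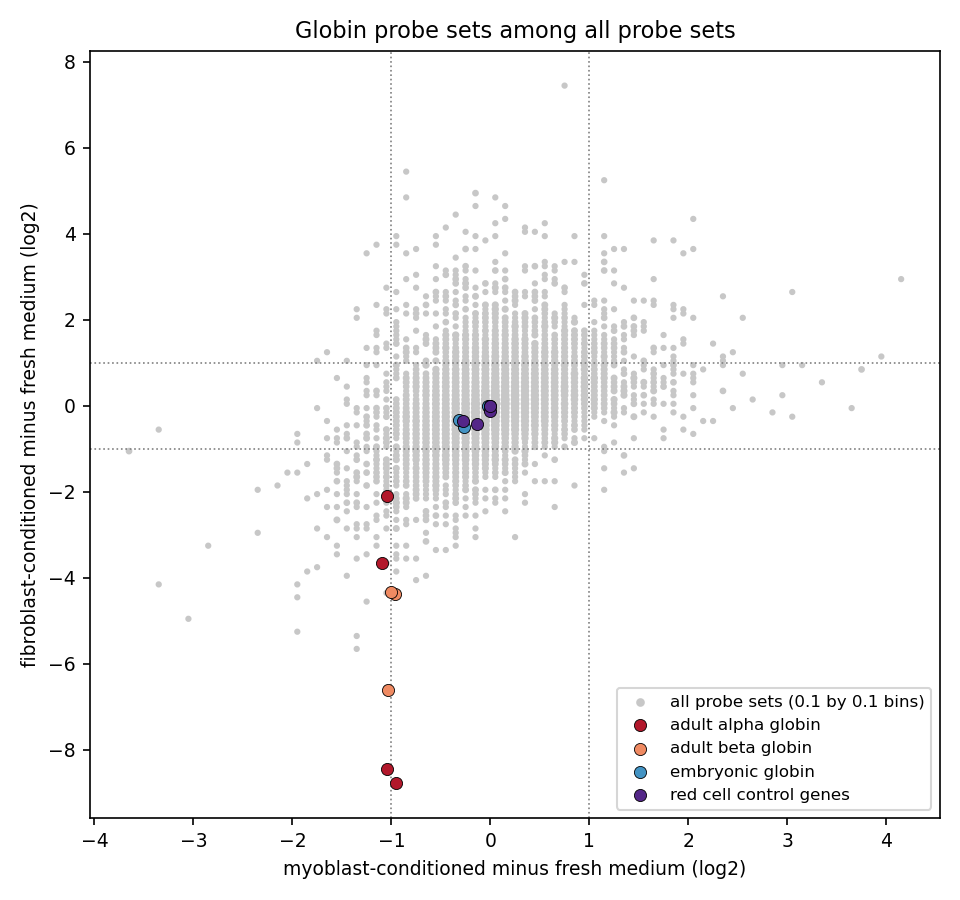
Each probe set's log2 difference of myoblast from fresh medium (horizontal) and of fibroblast from fresh medium (vertical). Grey points are bins of all 31099 probe sets, coloured points the members, and dotted lines mark 2-fold. The adult globins form a near-vertical column at about -1 that runs from -2.09 down to -8.77, and the embryonic and red cell probe sets lie near the centre. Hbz and Epb42 lie there because they had no value on any array.

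The red cell genes named beside the globins did not pass 2-fold, and how far above background their probe sets were is unknown. Of all probe sets, 0.72% to 3.6% passed it in each direction of a comparison. Alas2, the red cell form of the first enzyme of haem synthesis, read 0.13 in fresh, 0 in myoblast and -0.29 in fibroblast medium, a difference of -0.42 between fibroblast and fresh medium. Slc4a1, the anion exchanger band 3 of the red cell membrane, had a probe set at 0.28 in fresh, 0 in myoblast and -0.07 in fibroblast medium. Its other probe set read 0 in fresh and myoblast medium and -0.11 in fibroblast medium. Epb42, a membrane skeleton protein of red cells, had no value on any array. Alas2 and the wider Slc4a1 probe set followed the adult globins in the order of media, but their largest difference was 0.42 in size, within the range of the control transcripts for fibroblast medium. In myoblast against fresh medium the controls ran from -0.01 to 0.66 and give little gauge of a decrease. Alas2 (-0.13) and that Slc4a1 probe set (-0.28) ranked 5958 and 3001 from the lowest of all probe sets there.

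In the wider list of late erythroid genes, Epb41 and Tfrc were the only members past 2-fold in any of the 3 comparisons. Of 14 measured members, which include the 3 red cell genes above, Epb42, Rhag and Hemgn had no value on any array and are read as 0. In fibroblast medium 1 of the 14 lay at least 2-fold below fresh medium and 0 above, with a median of -0.19. Of all 14218 genes 2.6% were that much lower, and the median was 0.00. That gene was Epb41, a membrane skeleton gene also expressed outside red cells, at -1.65 as the mean of probe sets at -2.51 and -0.79. The ankyrin gene Ank1 was at -0.74, the mean of probe sets at -2.15, 0 and -0.07. Of these 3, only the probe set at -2.15 had values on 2 arrays. Ahsp, which chaperones free alpha chains, was at -0.36. In myoblast medium 0 of the 14 passed 2-fold, where 0.844% of genes were 2-fold lower and 1.35% higher. The transferrin receptor gene Tfrc was at 0.78 and the mitochondrial iron importer Slc25a37 at 0.71 there. Between the conditioned media, Epb41 (1.31) and Tfrc (1.07) were at least 2-fold higher in myoblast medium and 0 of the 14 lower, against 2.12% and 3.94% of all genes.

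Erythroid regulators and haem enzymes were within 2-fold. None of 12 genes for erythroid transcription factors and their receptors passed 2-fold in any of the 3 comparisons. Gata1, the master regulator of the lineage, was at -0.31 in fibroblast against fresh medium and at 0 in myoblast medium. It had a value on the fibroblast array alone, so the 0 comes from blanks read as 0 on the other arrays. Klf1, which activates adult beta globin, was 1 of 3 genes of the list with no value on any array and gives no information here. Of 11 haem synthesis genes none passed 2-fold in any comparison. Of all genes, 0.844% to 4.26% passed it in each direction of a comparison, so lists this short would hold few or none. In fibroblast medium their median was -0.16, with Fech, the enzyme that inserts the iron, at -0.72, Alad at -0.65 and Cpox at 0.95.

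Among 16 genes of iron handling and haem breakdown, 2 had no value on any array and are read as 0. In fibroblast medium 2 of the 16 were at least 2-fold higher than in fresh medium, where 4.26% of all genes were. They were the iron-oxidising plasma protein gene Cp at 1.21 and Hp, whose product haptoglobin binds free haemoglobin, at 1.15. Cp passed as the mean of probe sets at 0.37, 0.56 and 2.69, and Hp had a value on the fibroblast array alone. In myoblast medium 1 of the 16 was 2-fold higher, against 1.35% of all genes: Hmox1, the haem-degrading enzyme, at 1.01. Cd163, the macrophage receptor for haptoglobin-bound haemoglobin, was at 0.17 in myoblast and 0.08 in fibroblast medium. Among the other haem-binding globins, myoglobin (Mb) was at -1.42 in myoblast and -0.73 in fibroblast medium, so its order of media differed from that of the haemoglobins. Cygb was at -0.14 in both and Ngb at -0.04 and -0.12.

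**Figure D4:**
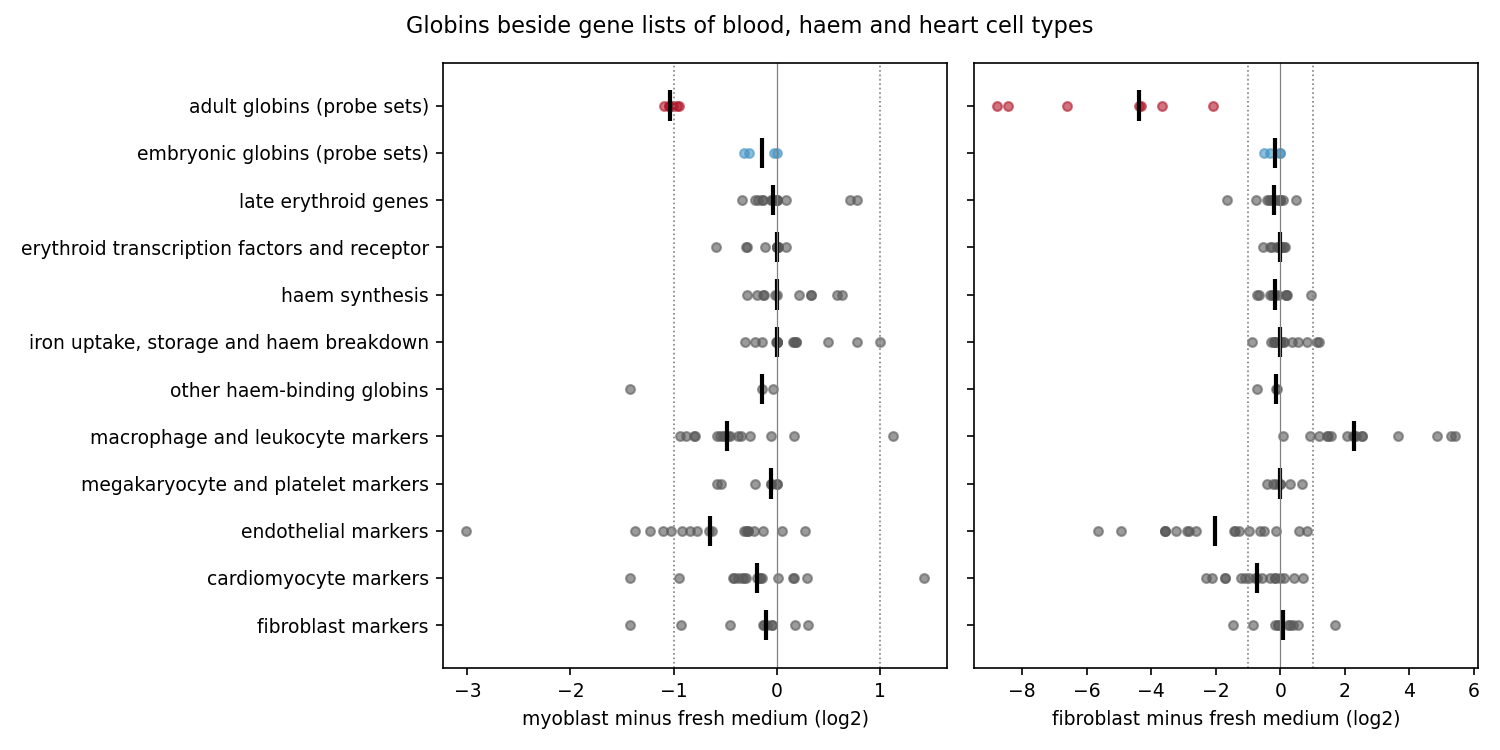
Log2 differences from fresh medium in myoblast medium (left) and fibroblast medium (right) for adult and embryonic globin probe sets and for the genes of each list. Points are probe sets or genes, black bars are medians and dotted lines mark 2-fold. In fibroblast medium the adult globins have a median of -4.36, the late erythroid genes -0.19, the macrophage markers 2.28 and the endothelial markers -2.02.

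Markers of other cell types are given beside the globins. In fibroblast medium 12 of 18 endothelial markers fell short of fresh medium by 2-fold or more and 0 exceeded it by as much, against 2.6% and 4.26% of all genes, with a median of -2.02 and a range from -5.65 to 0.83. In myoblast medium 5 were lower, against 0.844% of all genes, and 0 higher. The median was -0.64, with a range from -3.01 to 0.28. Macrophage and leukocyte markers went the other way in fibroblast medium, where 14 of 16 exceeded fresh medium by 2-fold or more, against 4.26% of all genes, with a median of 2.28 and a range from 0.08 to 5.41. In myoblast medium 0 of them were 2-fold lower and 1 was 2-fold higher, against 0.844% and 1.35% of all genes. Their median there was -0.48, with a range from -0.94 to 1.13. Megakaryocyte and platelet markers had 0 of 7 past 2-fold from fresh medium in either conditioned medium. Their median was -0.06 in myoblast medium, with a range from -0.58 to 0.00, and 0.00 in fibroblast medium, with a range from -0.42 for Itga2b to 0.67 for Pf4. Gp5 among them had no value on any array. Of 17 cardiomyocyte markers 1 was 2-fold lower and 1 higher in myoblast medium (median -0.19, from -1.42 to 1.43), and 6 were lower and 0 higher in fibroblast medium (median -0.73, from -2.30 to 0.72). Of 10 fibroblast markers 1 was 2-fold lower and 0 higher in myoblast medium (median -0.10, from -1.42 to 0.31), and 1 was lower and 1 higher in fibroblast medium (median 0.09, from -1.48 to 1.69). The platelet, cardiomyocyte and fibroblast counts stand against the same shares of all genes. These were 0.844% lower and 1.35% higher in myoblast medium, and 2.6% lower and 4.26% higher in fibroblast medium. The part of any of these cells in the globin values was not tested.

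The genes with the pattern most like the globins were found by the distance of their differences of both conditioned media from fresh medium to the globin medians of -1.0 and -4.32, taken over the 9 globin probe sets with values on 2 arrays and compared with 13975 other genes on the 3 arrays. The nearest was Dhrs7c, a dehydrogenase gene of striated muscle, at -1.20 and -4.56, at a distance of 0.31. Next came the imprinted gene Mest (distance 0.69), the endothelial tight junction gene Cldn5 (0.74), Capn6 (0.79), the endothelial nitric oxide synthase gene Nos3 (0.79) and the lymphatic endothelial gene Lyve1 (0.82), then Gstt3 (0.94) and Prnd (0.94). Of the genes with a probe set of their own, Emcn, an endothelial gene, was lowest in fibroblast against fresh medium at -5.65. The alpha probe sets 1370239_at and 1370240_x_at and the beta probe set 1371245_a_at lay below it.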

How the data were processed

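Per the labels' protocols, biotin-labelled total RNA of each culture went to 1 array. The authors' deposited log2 values come from RMA, which subtracts background, equalises the arrays and summarises the probes of a probe set. RMA is named in the submitters' processing notes without version or settings. The values themselves show centring on each probe set's median: of 31099 probe sets, 17117 had 2 values (always 1 positive and 1 negative), 8002 had 1, 5980 had none and 0 had 3. Blanks were read as 0, so a blank can also stand for a tie.

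The dated platform annotation gave 20832 probe sets 1 symbol, 436 several and 9831 none. Of those with 1 symbol, 20764 were matched by Entrez ID to the RefSeq gene table of GRCr8, which updated the symbols. Globin probe sets with several symbols were kept as they are. A list gene is the mean of its probe sets with that symbol alone. This gave 14218 genes, and 19 of 143 entries of the 10 lists had none and were not analysed here.

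Differences were taken for 3 pairs of arrays and counted at 2-fold. With 1 array per medium no test was made. The members and lists were chosen with earlier results of these data known. Every globin and red cell probe set is named. Named genes of the erythroid, haem and iron lists are those past 2-fold or among the 4 largest of each sign. Rhag, Hemgn, Klf1, Cd163 and Gp5 fall outside this rule and were chosen after their values were seen. Lists of other cell types are given as counts, medians and ranges. The nearest genes are the first 8 by Euclidean distance, with LOC, RGD, MGC and AABR symbols left out. Counting was tested on simulated data. Alternatives tried were the treatment of blanks, of probe sets with several symbols and of cross-hybridising ones, array centring, thresholds and the summary of probe sets. Python 3.11.15, NumPy 2.4.6 and pandas 2.3.3 were used.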

Additional observations from a re-analysis of the deposited data

How the results depend on the processing

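No paired analysis was possible because each medium had 1 array. The direction of the globin medians was kept under every alternative tried. With only probe sets of 1 gene symbol, which leaves 6 globin probe sets, 4 of them embryonic, the median was -0.30 in myoblast and -0.41 in fibroblast against fresh medium and 0.11 between the conditioned media, and 2 probe sets (Hbb and Hba-a3) passed 2-fold in each comparison. Without the cross-hybridising probe sets, which leaves 7, 4 of them embryonic, the medians were -0.32, -0.50 and 0.23, and the counts were 2, 3 and 3. Both settings drop adult probe sets and keep every embryonic one. Restricted to probe sets with 2 array values, the median was -4.32 in fibroblast against fresh medium and 3.32 between the conditioned media. The mean over globin probe sets in place of the median was -0.70 for myoblast against fresh medium. At a 3-fold threshold 0 globin probe sets passed for myoblast against fresh medium. Centring each array on its mean and the 1.5-fold threshold left the globin and red cell counts within 1.5 times of those reported. Of the list medians under other settings, 114 moved by no more than the SD of the control transcripts and 6 by more, without a change of direction of any median past 2-fold. Signal over background is unknown, and the largest differences have no error.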
